A study of Bos taurus with 64 samples.

Results

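LEAP2 encodes liver-enriched antimicrobial peptide 2, a short secreted peptide best known from the liver and the small intestine. The mature peptide binds the growth hormone secretagogue receptor (GHSR), the receptor of the stomach hormone ghrelin, and blocks its signalling. Ghrelin raises appetite and growth hormone release, and the balance between both ligands follows the feeding state, with LEAP2 dominating after a meal and ghrelin during a fast. Skeletal muscle is not among its known main sources. LEAP2 was followed here in 2 muscles of each cow, and it was chosen by its lower level in the stressed cows in the M. longissimus thoracis (LT). The values of that contrast are therefore given as a description, without a test.

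The 32 animals were Normand cull cows, slaughtered at a mean age of 4.5 years after a fattening period on a ration of straw and concentrate enriched with lipids from linseed and rapeseed. All the cows received these lipids. In each stress group, 8 cows had this control diet and 8 had the EP diet, in which vitamin E and plant extracts rich in polyphenols were added. The 16 stressed cows (called moderated stress in the labels) travelled alone by lorry and spent 30 minutes in a labyrinth on a farm they did not know, while the 16 cows handled with limited stress travelled with a companion and were handled calmly. The LT, a muscle of the back that supports the body, and the M. semitendinosus (ST), a locomotor muscle of the hind leg, were taken from every cow within 15 minutes of slaughter. RNA from whole muscle was hybridized to 64 single-colour Agilent arrays, 1 array for each muscle of each cow.

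Of the 13285 probes for 5449 transcripts, 1 probe (A_73_105018), spotted once on each array, carried the name LEAP2 and the transcript NM_174559. Every LEAP2 value below is the signal of this single spot, so its sequence is shown.
LEAP2 probe: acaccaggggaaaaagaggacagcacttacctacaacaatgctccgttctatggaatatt
The probe has 60 bases, of which 26 (43.3%) are G or C. The array files place it at chr7:44102590-44102649 in the assembly Btau_3.1, and its exon was not looked up because no annotation of that build was used. None of the other 13284 probes shared a run of 13 bases with it on either strand. In the RefSeq gene table of a later assembly (ARS-UCD2.0), the coding genes on either side of LEAP2 were UQCRQ and AFF4.

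The LEAP2 spot was dim. Its processed signal ran from 11.8 to 72.1 units in the LT (median 39.3, n = 31 cows) and from 9.68 to 41.1 units in the ST (median 21.6, n = 32), whereas the 75th percentile of the signals of an array lay between 2470 and 4202 units. The median local background was 23.0 units beside the LT spots and 21.8 units beside the ST spots. The software called the spot well above background on every LT array and on 28 of the 32 ST arrays, and the 4 exceptions (cow258, cow269, cow275 and cow286) all had the EP diet. The software gave the signal a median error of 11.7% for LT arrays and 15.6% for ST arrays.

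A pair of animals needs to be named before the comparisons. The LT spot of the animal labelled cow255 (limited stress, control diet) was marked as uneven by the software and set aside, which left 15 limited stress cows in the LT. Its signal was 3746 units, its pixels had a mean of 4377 and a median of 1774 units, and no other LT spot exceeded 72.1 units. Animal cow321 (stress, control diet) stood apart from the other cows over the whole array in both muscles. The median distance of its probes from the median cow was 0.40 in the LT and 0.36 in the ST on the log2 scale, where the other 31 cows reached at most 0.24 and 0.23. It was kept, and LEAP2 values are also given without it.

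Levels are given below as the log2 of the signal over the 75th percentile of the array, a scale on which LEAP2 is negative and a difference of 1 is a doubling. In the LT of limited stress cows, the lowest, median and highest values were -6.23, -6.15 and -6.03 on the control diet (n = 7) and -6.82, -6.22 and -5.65 on the EP diet (n = 8). In the LT of stressed cows they were -8.19, -6.71 and -6.27 on the control diet and -7.15, -6.74 and -6.36 on the EP diet (n = 8 each). Stressed cows thus lay lower, and on the control diet the stress groups did not overlap.

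In signal units, the same LT groups had medians of 47.7 (range 43.7 to 54.5) and 44.2 (29.1 to 72.1) in limited stress cows on the control and the EP diet. The medians in stressed cows were 34.1 (11.8 to 40.1) and 30.96 (25.5 to 45.6). The 7 limited stress cows on the control diet, without cow255, were much alike. Their SD was 0.073 on the log2 scale, where the SD of the other 3 groups of LT arrays lay between 0.25 and 0.60. In signal units their SD was 3.35, below the error of 4.93 to 6.14 units that the software gave these spots. Such a small spread is therefore not a measure of how much these cows differ.

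**Figure D1:**
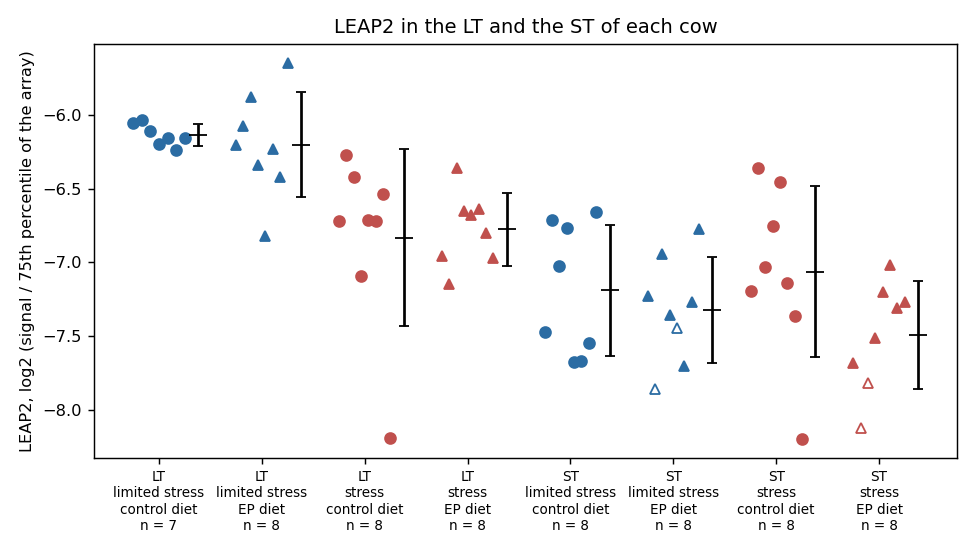
LEAP2 level of each cow (log2 of the signal over the 75th percentile of the array) in the 8 groups of muscle, stress and diet, with the mean and SD of each group in black. Circles are control diet and triangles EP diet, open symbols were not well above background, and the uneven spot of cow255 is left out. In the LT the stressed cows (red) lie below most limited stress cows (blue), while the ST groups overlap.

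None of the 16 stressed cows exceeded the LT median of the 15 cows with limited stress, and 12 of these 15 were above the highest stressed cow. Over all the transcripts tested in this contrast, 2.2% were called higher and 1.53% lower in stressed cows, a call being an adjusted p under 0.1 for at least 80% of the probes of a transcript. The highest stressed cows were cow265 (-6.27), cow269 (-6.36) and cow268 (-6.42). The lowest limited stress cows were cow286 (-6.82), cow314 (-6.42) and cow280 (-6.34), and these 3 were the only ones below the highest stressed cow. At the other end, 5 stressed cows were below all 15 limited stress cows.

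The fitted log2 difference (stress - limited stress) was -0.64 (SE 0.13) in the LT, which is 1.55-fold lower in stressed cows. In RNA from whole muscle, fewer cells that express LEAP2 and less LEAP2 RNA per cell cannot be told apart. Without cow321 it was -0.54. With the uneven spot of cow255 kept it was -1.01 (SE 0.38), and after a background correction with an offset of 50 units and quantile normalization it was -0.23 (SE 0.053). Over all transcripts tested in the LT, the median was -0.054. By diet, the difference between the means was -0.70 on the control diet and -0.57 on the EP diet. The larger fall on the control diet rested on cow321, which had that diet. Without cow321, the difference of the stress effects (EP - control diet) went from 0.12 (SE 0.27) to -0.070 (SE 0.19).

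In the ST, LEAP2 did not pass the test for stress. The lowest, median and highest values on the control diet were -7.68, -7.25 and -6.66 in limited stress cows and -8.20, -7.09 and -6.36 in stressed cows (n = 8 each). On the EP diet they were -7.86, -7.31 and -6.77 in limited stress cows and -8.13, -7.41 and -7.02 in stressed cows (n = 8 each). The stress groups overlapped on both diets, and 10 of the 16 stressed cows exceeded the limited stress median.

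The log2 difference (stress - limited stress) in the ST was -0.021 (SE 0.15, 95% interval -0.33 to 0.29, adjusted p = 0.959 with limma), where 1.48% of all transcripts tested were called higher and 2.12% lower. The interval leaves room for a difference of up to 0.33 downwards. The difference of the stress effects (LT - ST) was -0.61 (SE 0.21), which holds the contrast that chose LEAP2 and is a description. The sign of the ST value depended on the scaling, and the unscaled signals gave 0.13 (SE 0.16, adjusted p = 0.733). The 75th percentile itself was higher with stress by 0.15 in the ST and by 0.051 in the LT, as a difference of log2 means. The scaling subtracts this shift, which took the LEAP2 difference from 0.13 to -0.021 in the ST and from -0.59 to -0.64 in the LT. Why the percentile differed was not tested.

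The arrays were placed on 9 slides, each of which held arrays of a single muscle but of both stress groups. In the LT, the mean of the stressed cows was below that of the limited stress cows on all 4 slides, by 0.30 to 1.01. Some of these means also rest on few cows. Slides 5 and 7 held 2 and 3 limited stress cows, and slide 6 held 2 stressed cows, both on the EP diet. Slide 8, with the difference of -1.01, held cow321. In the ST, the stressed cows were lower on 4 slides (differences of -0.15 to -0.77) and higher on slide 3, where the 5 stressed cows exceeded the 3 limited stress cows by 0.77. The 4 ST slides where stressed cows were lower rest on few cows of 1 stress group. Slides 1, 2 and 4 held 2, 2 and 1 stressed cows, all on the EP diet, beside limited stress cows of both diets. Slide 9 held 1 limited stress cow, on the EP diet, beside stressed cows of both diets that included cow321. The differences on these slides thus mix stress with diet. With the slide as a block, the stress difference was -0.64 (SE 0.15) in the LT and -0.022 (SE 0.19, adjusted p = 0.977 with limma) in the ST. With the scan day as a block it was -0.62 (SE 0.13) in the LT and -0.040 (SE 0.18) in the ST.

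**Figure D2:**
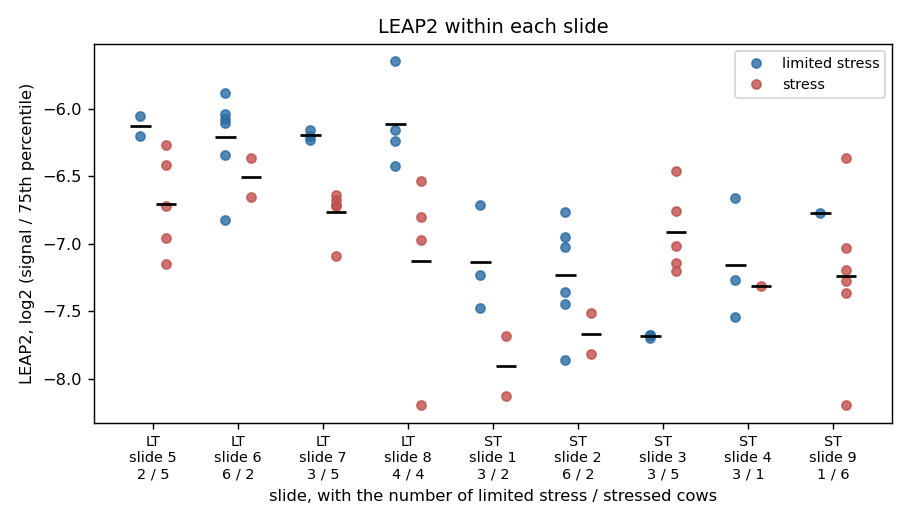
LEAP2 level of each cow (log2 of the signal over the 75th percentile) by slide, with limited stress cows in blue, stressed cows in red and a bar at each mean; the numbers of cows stand under each slide. The red mean is below the blue mean on the 4 LT slides and on 4 of the 5 ST slides, and above it on ST slide 3. On some slides the stressed cows were all on the EP diet, so stress and diet are mixed there.

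LEAP2 was higher in the LT than in the ST. The mean difference between the muscles of a cow (LT - ST) was 0.76 on the log2 scale (SD 0.52, n = 31 cows), which is 1.70-fold, and LT was the higher muscle in 29 of the 31 cows. It ran from -0.34 in cow297 to 1.78 in cow275. The exceptions were cow297 and cow301, both stressed and on the control diet, and in cow321 the muscles differed by 0.0026.

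In the fit of all arrays, the difference (LT - ST) was 0.78 (SE 0.10, adjusted p = 5.88e-09 with limma), and 21.9% of all transcripts tested were called higher and 29.9% lower in the LT. A replicate block for the cow, which pairs both muscles, gave 0.78 (SE 0.077, adjusted p = 3.73e-13). With the slide as a random block it was 0.78 (SE 0.14, adjusted p = 8.83e-06). The size depended on the scaling, with 0.28 (1.21-fold) after normexp and quantile normalization and 0.97 (1.96-fold) with the median of the control features. Because no slide held both muscles, the muscle and the slide cannot be told apart.

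The muscle difference by group is a description, since it contains the LT stress contrast. It was 1.07 (SD 0.38, n = 15) in limited stress cows, all of which had more LEAP2 in the LT, and 0.47 (SD 0.46, n = 16) in stressed cows, of which 14 did. Within the stressed cows it was 0.23 (SD 0.42, n = 8) on the control diet and 0.72 (SD 0.38, n = 8) on the EP diet. The limited stress cows had 1.02 (SD 0.42, n = 7) and 1.12 (SD 0.36, n = 8) on these diets.

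**Figure D3:**
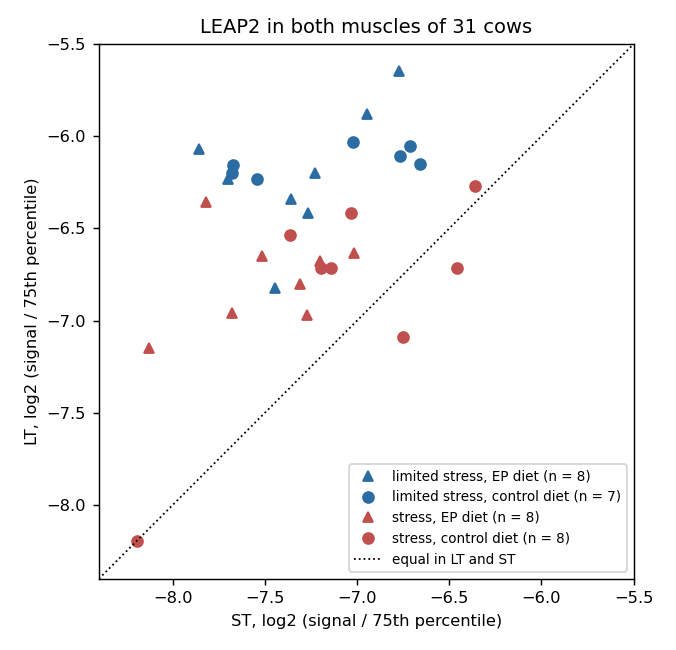
LEAP2 level in the LT (vertical axis) against the ST (horizontal axis) of the same cow for 31 cows, both as log2 of the signal over the 75th percentile of the array, with stress as colour and diet as symbol. Limited stress cows (blue) all lie above the dotted line of equal levels, and 2 stressed cows on the control diet lie below it, with cow321 at the lower left.

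Cows were also compared within each stress group for whether a high LT value went with a high ST value. In limited stress cows, Pearson's r was 0.42 (permutation test with 100000 resamples, two-sided, p = 0.118, n = 15) and Spearman's rho was 0.46 (p = 0.0875). In stressed cows, r was 0.55 (p = 0.0248, n = 16) and rho was 0.37 (p = 0.163). After Benjamini-Hochberg adjustment for the 2 groups, p was 0.118 and 0.0495 for r and 0.163 in both groups for rho. Without cow321 and cow265, the farthest from the LT median among stressed cows, r fell to 0.11 (permutation p = 0.703, n = 14), so the relation in stressed cows rested on these animals. Without cow286 and cow331, r in limited stress cows was 0.35 (permutation p = 0.245, n = 13).

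The diet was not followed by a LEAP2 difference that passed the test. The EP diet gave a log2 difference (EP - control) of -0.0057 (SE 0.13, 95% interval -0.28 to 0.27, adjusted p = 0.999 with limma) in the LT. In the ST it was -0.28 (SE 0.15, 95% interval -0.59 to 0.032, adjusted p = 0.949), from means of -7.41 (SD 0.36) on the EP diet and -7.13 (SD 0.50) on the control diet (n = 16 each). With the 4 ST spots that were not well above background left out, it was -0.15 (SE 0.16), but this took values from the EP diet alone. Unscaled signals gave -0.38 (SE 0.16, 95% interval -0.70 to -0.055, adjusted p = 0.547 with limma) in the ST. After normexp and quantile normalization it was -0.10 (SE 0.044, 95% interval -0.19 to -0.011, adjusted p = 0.782).

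No transcript was called for diet in limma, 0% of those tested in either muscle. The unadjusted p was under 0.05 for 407 of 10441 LT probes and 531 of 10305 ST probes. Chance alone gives a share of about 0.05, and these counts were near or below it. The stress effect did not differ detectably between the diets. The difference of the LEAP2 stress effects (EP - control diet) was 0.12 (SE 0.27, 95% interval -0.42 to 0.67, adjusted p = 0.9999 with limma) in the LT. In the ST it was -0.30 (SE 0.31, 95% interval -0.92 to 0.33, adjusted p = 0.972). Again 0% of the transcripts were called. The unadjusted p was under 0.05 for 276 LT probes and 491 ST probes, near or below the share that chance gives.

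Ordered by mean level, the 8 groups ran from LT limited stress control (-6.13) and LT limited stress EP (-6.20) to LT stress EP (-6.77) and LT stress control (-6.83). The ST groups followed, with stress control (-7.06), limited stress control (-7.19), limited stress EP (-7.32) and stress EP (-7.49). Neighbours in this order were 0.056 to 0.23 apart in 6 of the 7 steps, less than the SD of the cows within groups (0.41 over both muscles). That SD is of single cows and not of group means, and the steps were not tested one by one. The step of 0.57 between LT limited stress EP and LT stress EP belongs to the contrast that chose LEAP2.

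**Figure D4:**
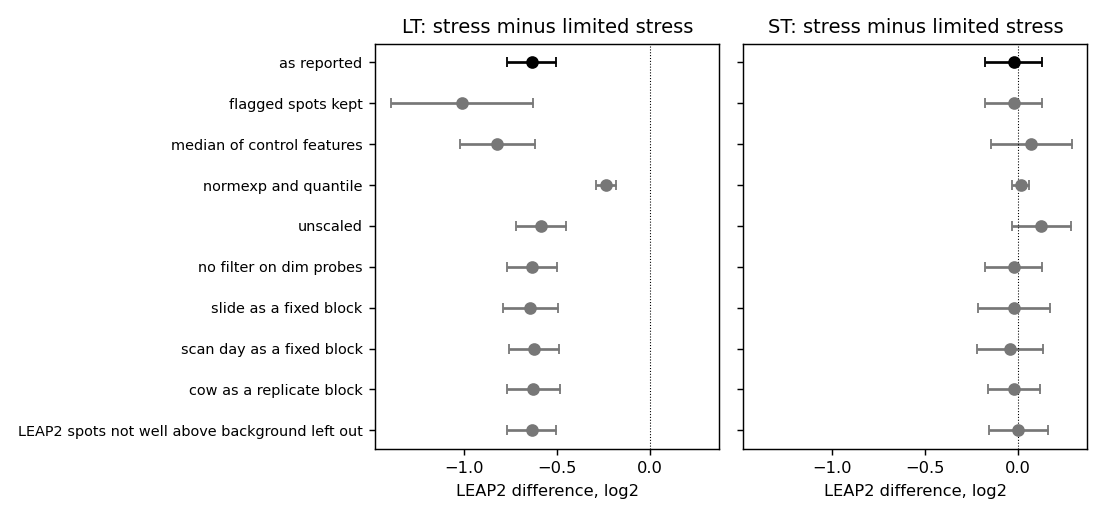
Log2 difference of LEAP2 between stressed and limited stress cows in the LT (left) and the ST (right), with its SE, as reported (black) and under 9 other settings of the processing (grey); the dotted line marks no difference. The LT value stays below 0 throughout, between -1.01 and -0.23, and the ST value lies on either side of 0.

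The other parts of the ghrelin system could be followed only in part. Of 11 genes listed, 3 were on the array by name: GHRL, which encodes ghrelin, and FURIN and PCSK1, which encode proteases that cut prohormones. GHRL was well above background on 1 of 32 LT arrays and 2 of 32 ST arrays, with median signals between 3.08 and 3.45 units in the 4 groups of muscle and stress. PCSK1 was not well above background on any array. Its median signals were 2.51 to 3.23 units.

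FURIN was bright on all arrays, with a median signal of 2425 units (range 2060 to 2932) in limited stress cows and 2560 units (range 1946 to 5359) in stressed cows in the LT. Its stress groups overlapped in both muscles, with a log2 difference of 0.13 (SE 0.10, adjusted p = 0.553 with limma) for the LT and 0.0064 (SE 0.095, adjusted p = 0.980) for the ST. FURIN was lower in the LT than in the ST, with a log2 difference (LT - ST) of -0.18 (SE 0.071, adjusted p = 0.0281). The receptor gene GHSR was not among the gene names of the array, so the target of LEAP2 was not analysed here.

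Of 26 genes of the growth hormone and IGF axis, which acts downstream of ghrelin through the pituitary, 17 were on the array and 11 were tested for stress in the LT and 12 in the ST. None was called in the LT (median log2 difference -0.0064, against -0.054 over all transcripts). In the ST, 1 of 12 was called lower, against 2.12% of all transcripts, and none higher (median -0.11, against -0.062). This was STAT5A, a transcription factor activated by growth hormone and prolactin receptors. Its ST signal had a median of 87.6 units (range 57.2 to 121) in limited stress cows and 77.4 units (range 37.5 to 94.5) in stressed cows (n = 16 each), so the groups overlapped. Its log2 difference was -0.38 (SE 0.097, adjusted p = 0.0255 with limma) in the ST and -0.091 (SE 0.090, adjusted p = 0.651) in the LT. The ST call was lost in 3 of 7 other settings, namely with the median of the control features, with unscaled signals and with the slide as a block (adjusted p = 0.180).

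Of 29 hormones, receptors and metabolic regulators of appetite and energy use, 19 were on the array and 14 were tested in the LT and 13 in the ST. In the LT 1 of 14 was called higher, against 2.2% of all transcripts, and none lower (median 0.014, against -0.054). None was called in the ST (median -0.095, against -0.062). The gene called was CCK, which encodes the gut and brain peptide cholecystokinin. CCK was dim, with a median LT signal of 12.3 units (range 3.79 to 23.5) in limited stress cows and 18.7 units (range 8.81 to 43.7) in stressed cows. It was well above background on 17 of the 32 LT arrays, 7 of the 16 of limited stress cows and 10 of the 16 of stressed cows. Its log2 difference in the LT was 0.69 (SE 0.22, adjusted p = 0.0841 with limma), and in the ST it was 0.42 (SE 0.23, adjusted p = 0.350). The LT call was lost in 3 of 7 other settings, and in 17 of the 32 fits that left out 1 cow. Leptin (LEP), the adipose satiety hormone, was well above background on at most 2 arrays of a muscle.

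Of 25 antimicrobial and host defence peptides, the class in which LEAP2 was first described, 3 were on the array and 2 were tested in each muscle. These were LTF (lactoferrin) and S100A12. Neither was called for stress, and their log2 differences in the LT were 0.025 (SE 0.26) and -0.25 (SE 0.22).

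The tissue and the other possible sources of LEAP2 were checked with marker genes. Among the skeletal muscle markers, 8 of 11 were on the array, and each was well above background on all arrays. Of these, MYOG (myogenin, a regulator of muscle differentiation) was called lower in stressed cows in both muscles, with log2 differences of -1.004 (SE 0.10) in the LT and -0.85 (SE 0.12) in the ST. The others were not called for stress.

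Among the liver markers, 6 of 10 were on the array. ALB (albumin) was well above background on no LT array and 5 ST arrays, APOB on 1 array of each muscle, and SERPINA1 and AHSG on none. The other members, APOA1 and APOA2, were well above background on all arrays, and their LT stress differences were -0.050 (SE 0.27) and -0.0067 (SE 0.091). The summed level of both genes ran from -2.43 to -1.50 in limited stress cows and from -2.55 to -1.25 in stressed cows in the LT on the log2 scale. Of the small intestine markers, FABP2 was at background on every array, and APOA4 was well above background on 18 LT and 12 ST arrays with a stress difference of -0.21 (SE 0.37) in the LT.

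The summed fat markers ADIPOQ and FABP4 had medians of 0.036 (range -1.81 to 1.89) in limited stress cows and -0.47 (range -3.26 to 1.66) in stressed cows in the LT, with overlapping ranges. In the ST the medians were -0.60 and -0.47. The stress differences of ADIPOQ were -0.23 (SE 0.36) in the LT and -0.75 (SE 0.36) in the ST. Those of FABP4 were -0.38 (SE 0.38) and -0.63 (SE 0.41), and neither gene was called. The endothelial marker PECAM1 differed by 0.015 (SE 0.13) between the stress groups of the LT. The blood markers HBB and PTPRC had summed medians of -4.22 and -4.36 in these groups. The part of these cell types in the LEAP2 values was not tested.

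The array genes closest to LEAP2 on the chromosome gave few values, and most were several coding genes away. GDF9, an oocyte growth factor gene and the second coding gene before LEAP2, was the nearest on the array. It was dim, well above background on 22 LT and 18 ST arrays, and its stress difference was -0.060 (SE 0.17, adjusted p = 0.889 with limma) for LT and -0.12 (SE 0.21, adjusted p = 0.792) for ST. SCAMP4 and GAMT, the 8th and 26th coding genes before LEAP2, had LT differences of -0.18 (SE 0.31) and -0.16 (SE 0.11). On the other side, FSTL4, VDAC1 and PPP2CA were the 4th, 6th and 9th coding genes. FSTL4 was not tested, VDAC1 differed by -0.023 (SE 0.050) and PPP2CA by 0.23 (SE 0.097, adjusted p = 0.233 with limma) in the LT.

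The transcripts whose levels followed LEAP2 most closely across cows were looked for after the mean of each stress and diet group was taken off, over 31 cows in the LT and 32 in the ST. Among 1871 named transcripts, the median Pearson r with LEAP2 was 0.076 in the LT and 0.045 in the ST. By the lower of both r, the most alike included TUBD1 (a tubulin gene, 0.67 in the LT and 0.67 in the ST), MAPK14 (the stress kinase p38 alpha, 0.77 and 0.66), MASP1 (a complement protease, 0.65 and 0.63) and DFFB (a DNase of apoptosis, 0.60 and 0.62). The 3 most opposite were TOP1 (topoisomerase, -0.59 and -0.52), RAB2A (a GTPase of vesicle traffic, -0.51 and -0.57) and CDKN1A (an inhibitor of the cell cycle, -0.68 and -0.51).

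In the LT these likenesses rested largely on cow321. Its value was the lowest of all cows in both muscles for these 4 alike genes, and the highest in both muscles for the 3 opposite ones. In CDKN1A, cow321 had 4.47 in the LT and 4.45 in the ST on the log2 scale, where the other 31 cows reached at most 0.095 and 0.83. Without cow321, r with LEAP2 in the LT was 0.047 for TUBD1, 0.38 for MAPK14, 0.14 for MASP1 and 0.30 for DFFB, and it was 0.27, 0.00042 and 0.0087 for TOP1, RAB2A and CDKN1A. In the ST, r without it was 0.51 for TUBD1, 0.49 for MAPK14, 0.43 for MASP1 and 0.47 for DFFB, and -0.13, -0.37 and -0.16 for the 3 opposite genes. The alike genes thus kept more of their r there, but they had been chosen by r in these same cows. The best lower r without it was 0.39, for SAFB2, and MAPK14 came 4th with 0.38. DFFB came 26th, MASP1 234th and TUBD1 482nd. DFFB was the single gene of these 4 called for stress, lower in stressed cows in the LT (-0.28, SE 0.086, adjusted p = 0.0693 with limma) and also the ST (-0.37, SE 0.10, adjusted p = 0.0525), calls lost in 2 and 4 of 7 other settings. The LT call of DFFB was also lost in 8 of the 32 fits that left out 1 cow, and its ST call in none.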

How the data were processed

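LEAP2 and the gene lists were chosen with earlier results of these data known. The authors deposited intensities that, as the file headers state, Feature Extraction 10.1.1.1 had background-subtracted and detrended, and they are not scaled between arrays. The authors' own scaling to control probes and their limma fit, which also had the slaughter period, are not in these values, and the period is not in the labels. The groups came from the labels, and the cow number pairs the LT and the ST of an animal (consensus correlation 0.407 over probes).

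Spots marked uneven or as outliers were set aside (the plan of analysis had kept them, which is the alternative), and repeated spots of a probe were averaged. Signals were divided by the 75th percentile of the non-control spots of the array and log2 transformed, because the control features were near background (median 3.22 units in the LT and 3.41 in the ST). A probe was tested in a muscle if 11 or more of its 32 arrays had it well above background. Each muscle was fitted with 4 groups of stress and diet, and all 64 arrays with 8 groups, using limma 3.58.1 (R 4.3.3, statmod 1.5.0). Tests were two-sided, with Benjamini-Hochberg adjustment over all probes of a comparison. The fit was tested on simulated data. The correlations used permutation tests written in Python 3.11.15, with ranks and adjustment from SciPy 1.17.1. No depth exists for arrays, and the number of cows limits the precision.

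Named genes were the members of the ghrelin list, members of other lists called for stress, up to 3 array genes on each side of LEAP2, and the 5 transcripts most and 3 least like it, of which 1 is not reported here. LEP, LTF, S100A12 and SAFB2 were added after their values were seen. Alternatives were the median of the control features, normexp with an offset of 50 and quantile normalization, unscaled signals, no filter, flagged spots kept, slide or scan day as blocks, the cow as a replicate block and each cow left out. Leaving out the spots not well above background, the likeness without cow321 and the counts with each cow left out were added after seeing the data. Promoters and proteins were not analysed here.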

Additional observations from a re-analysis of the deposited data

Results flagged for a closer look

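The LEAP2 value of cow321 in the LT (-8.19 on the log2 scale, 11.8 units) lay far below the other 7 stressed cows on the control diet. The gap to its nearest neighbour was 0.57 of the range of the group, against a critical value of 0.526 for 8 samples. Its ST value (-8.20) was also the lowest of its group. With the uneven spot kept, the LT value of cow255 (-0.091, 3746 units) lay far above the other limited stress cows on the control diet, with a gap of 0.97 of the range. A gap at or above the critical value appears by chance in about 1 of 20 groups, and 8 groups were examined. The gap of 0.97 belongs to the spot that the software marked as uneven.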

How the results depend on the processing

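LT - ST kept its direction and its call in all the alternatives that were run for it, but its size ran from 0.28 with normexp and quantile normalization to 0.97 with the control features or with flagged spots kept. LEAP2 was also lower in stressed cows in the LT in all of them, at -0.23 after normexp and quantile normalization, whose offset of 50 units is about the size of the LEAP2 signal. The stress difference in the ST changed sign with the median of the control features (0.074), normexp and quantile normalization (0.016), unscaled signals (0.13) and the dim spots left out (0.0036). The diet difference in the LT changed sign with the control features (0.18) and unscaled signals (0.0066), and the stress by diet difference in the LT with the control features (-0.17) and normexp (-0.031). None of these was past the threshold, and the cause was not tested. With the uneven spot of cow255 kept, the diet difference in the LT was -0.38 and the stress by diet difference 0.88, also not past the threshold.

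With 1 cow left out, the stress difference ran from -0.68 to -0.54 in the LT and from -0.071 to 0.060 in the ST, the diet difference from -0.10 to 0.039 in the LT and from -0.36 to -0.23 in the ST, the stress by diet difference from -0.070 to 0.20 in the LT and from -0.46 to -0.20 in the ST, LT - ST from 0.75 to 0.80, and the difference of the stress effects from -0.67 to -0.57. Pearson's r between the muscles of stressed cows was 0.37 with the control features, 0.37 with normexp and 0.35 with unscaled signals. It was 0.11 without the 2 farthest cows, and none of these passed an adjusted p of 0.05. On deviations from the diet means, with cow321 included, r was 0.64 (adjusted permutation p = 0.0227). Spearman's rho was 0.28 there (adjusted permutation p = 0.289). In limited stress cows no alternative passed, with 0.54 (adjusted permutation p = 0.0665) unscaled. When the cow was a replicate block, pairing the muscles, the stress difference was -0.63 in the LT and -0.021 in the ST, and it changed no call of LEAP2.

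The transcripts called for stress numbered 161 in the LT and 153 in the ST, and 2189 for LT - ST. With the control features there were 35, 38 and 1392. In the ST there were 100 with normexp, 87 unscaled, 52 with the slide and 71 with the scan day as a block, while in the LT the slide raised the count to 227 and the scan day to 224. With 1 cow left out they ran from 125 to 225 in the LT, from 109 to 218 in the ST and from 2119 to 2211 for LT - ST, and were 147, 139 and 2211 without cow321. LEAP2 is near the lower end of the signals, and in the ST 4 of its 32 values are not well above background.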
